A study of Mus musculus with 12 samples.

Results

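Secreted Wnt ligands and their secreted antagonists were examined in cultures of mouse fibroblast-like synoviocytes, which are stromal cells from the lining of joints. The 10 genes were taken by symbol from 36875 symbols in the count table: the ligands Wnt5a, Wnt5b and Wnt2, the antagonists Sfrp1, Sfrp2, Frzb, Dkk2, Dkk3 and Wif1, and the feedback gene Axin2. RNA sequencing was carried out on 12 libraries in 3 groups of 4. The resolution group (DOX OFF) had a 3-week course of doxycycline, at 1 mg/ml in drinking water sweetened with 5% sucrose, after which the drug was stopped. In the inflammation group (DOX ON) the same course of 3 weeks was not followed by a stop. The homeostasis group, described as WT, drank the 5% sucrose solution without the drug for 3 weeks. A TNF-induced inflammatory arthritis model is named in the protocol text that all 12 samples share. The sources used here give neither the transgene and its promoter nor the age and sex of the mice, the time after withdrawal or the passage number. Whether libraries of a group stem from different mice is not labelled; the p-values therefore describe the spread among libraries, which may be technical.

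Wnt proteins are secreted, lipid-modified ligands that bind Frizzled receptors, either with the co-receptors Lrp5 and Lrp6 to stabilise beta-catenin or, as is typical of Wnt5a, through other routes such as Ror2. Secreted Frizzled-related proteins (Sfrp1, Sfrp2 and Frzb) and Wif1 bind the ligands themselves, whereas Dickkopf proteins such as Dkk2 act on the co-receptors. The pathway is known in joints for its part in cartilage maintenance and bone remodelling, and Axin2 is a widely used read-out of beta-catenin activity because it is both a target and an inhibitor of the pathway.

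Total counts ran from 18120745 to 34971537 per library, so that a count of 0 allowed a level of up to 0.086 to 0.166 CPM (counts scaled to library size), for counting error only. All 11 fibroblast markers had counts in every group, and their summed level was 10992.9 to 15675.4 CPM in resolution, 21442.5 to 24762.2 CPM in inflammation and 27021.7 to 29295.7 CPM in homeostasis. The 12 macrophage markers, all with counts in each group, summed to 62.1 to 69.0 CPM in resolution, 648 to 708 CPM in inflammation and 115 to 152 CPM in homeostasis. The 11 chondrocyte markers summed to 27.7 to 39.5 CPM in resolution, where Ucma was at 0, to 24.3 to 34.6 CPM in inflammation and to 817 to 1045.4 CPM in homeostasis. Xist averaged 174 ± 67 CPM in resolution, 110 ± 35.3 CPM in inflammation and 10.8 ± 3.28 CPM in homeostasis (SD, n = 4 each). The Y-linked gene Ddx3y averaged 0 CPM in resolution, 0.0343 ± 0.0685 CPM in inflammation and 23.6 ± 1.82 CPM in homeostasis (SD, n = 4 each), so a difference from homeostasis cannot be told apart from this difference in sex-linked genes. Tnf averaged 0.308 ± 0.143 CPM in resolution, 1.02 ± 0.518 CPM in inflammation and 3.97 ± 2.20 CPM in homeostasis (SD, n = 4 each), so the group named homeostasis had the highest level of the mouse gene. With this order of Tnf and the sex-linked genes, the group labels could not be checked from the data and are in doubt, and every difference given here rests on them as deposited. A transgene was not analysed here.

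The antagonists moved in opposite directions. In inflammation Sfrp1, Frzb, Dkk2 and Dkk3 were above homeostasis, while Sfrp2 and Wif1 were far below it. In resolution Sfrp1 was at 22.5 ± 1.90 CPM, against 80.3 ± 13.3 CPM in inflammation and 28.9 ± 9.28 CPM in homeostasis (SD, n = 4 each). Sfrp2, Wif1, Frzb, Dkk3 and, depending on single libraries, Dkk2 differed between resolution and homeostasis. Whether such differences outlasted the drug cannot be told apart from other differences between the homeostasis group and the other groups. Of the ligands, Wnt5b was higher in inflammation and lower in resolution than in homeostasis, and Wnt5a and Wnt2 passed the test in no comparison.

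A gene passed where the edgeR quasi-likelihood test gave a Benjamini-Hochberg adjusted p under 0.05 over 15049 tested genes. For resolution against homeostasis, 6 of the 10 genes passed (3 higher, 3 lower), against 53.3% of all tested genes (27.5% higher, 25.8% lower). For inflammation against homeostasis 8 passed (5 higher, 3 lower), against 37.2% of all tested genes (19.0% higher, 18.3% lower). For resolution against inflammation 6 passed (3 higher, 3 lower), against 16.2% of all tested genes (8.52% higher, 7.64% lower), or 2431. Of the passing genes, 51.6% were higher in resolution against homeostasis and 52.7% in resolution against inflammation, shares that became 62.0% and 66.5% when libraries were scaled by total counts. These counts include Wif1, which reached the low-count filter only through groups where it was higher. Of the 9 other genes, 5 passed in resolution against homeostasis (3 higher, 2 lower), 7 in inflammation against homeostasis (5 higher, 2 lower) and 5 in resolution against inflammation (2 higher, 3 lower). The total for resolution against inflammation depended on single libraries: it was 4191 without resolution 2, 1584, 1299 and 1242 without resolution 1, 3 and 4, and 1443 and 1351 without inflammation 1 and 2. Same-numbered libraries of these 2 groups had weakly correlated deviations from their group means (0.13 to 0.21). Resolution 2 reached 0.2 with inflammation 1, and the labels state no pairing, so a pairing is not established. With the number nevertheless taken as a replicate block 4808 genes passed, among them 6 of the 9 Wnt genes tested in that fit (2 higher, 4 lower). For 5 of the 10 genes libraries did not overlap in resolution against homeostasis (43.5% of all tested genes). The number was 7 in inflammation against homeostasis (35.4%) and 6 in resolution against inflammation (18.9%). Wif1 was among these genes in each comparison. The median log2 fold change of the 10 genes, Wif1 included, was 0.20, 0.51 and 0.15 in these 3 comparisons. Over all tested genes it was -0.01, -0.01 and 0.02. The comparisons share libraries with each other and are not independent. The 10 genes were chosen with earlier results of these data known, so their counts are not evidence of an excess over all tested genes.

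**Figure D1:**
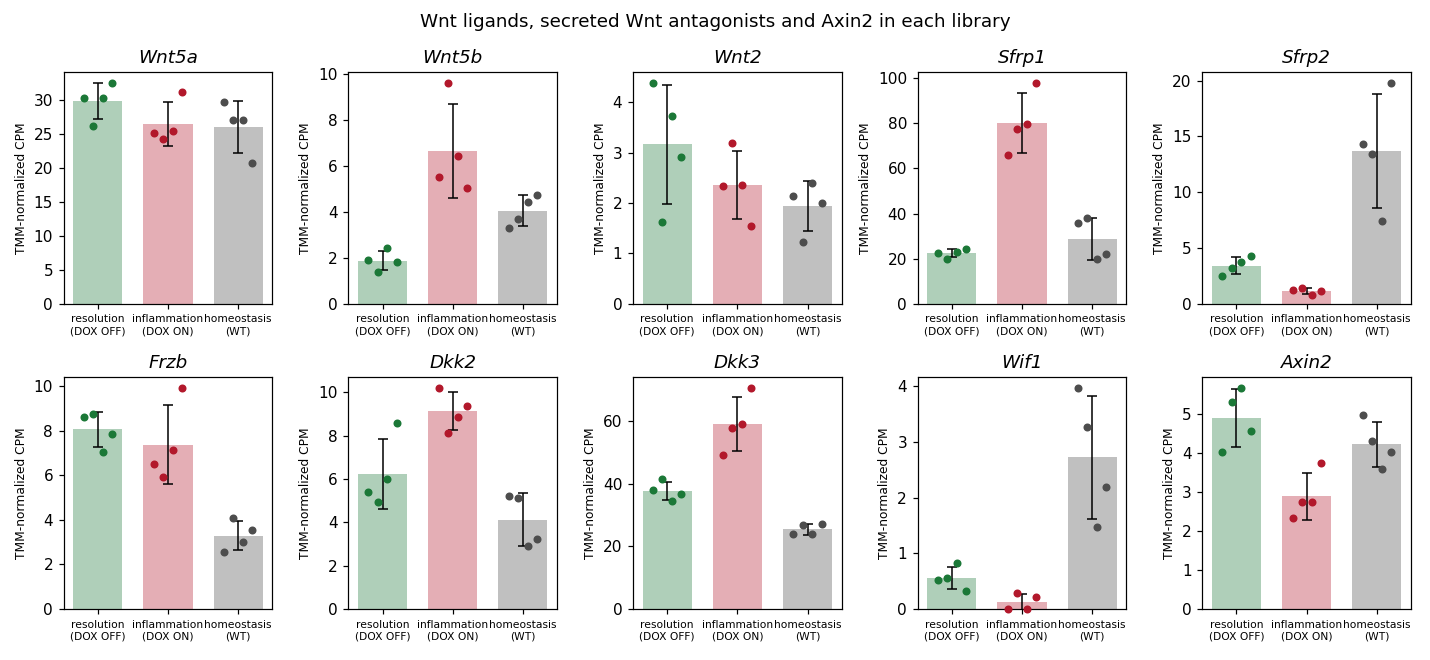
TMM-normalized CPM (y axis, from 0) of each gene in the 4 libraries (points) of the resolution, inflammation and homeostasis groups, with bars for the mean and lines for the SD. Sfrp1 sits between 65.8 and 97.9 CPM in inflammation, above all 8 other libraries, and Sfrp2 and Wif1 are highest in the homeostasis libraries.

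**Figure D2:**
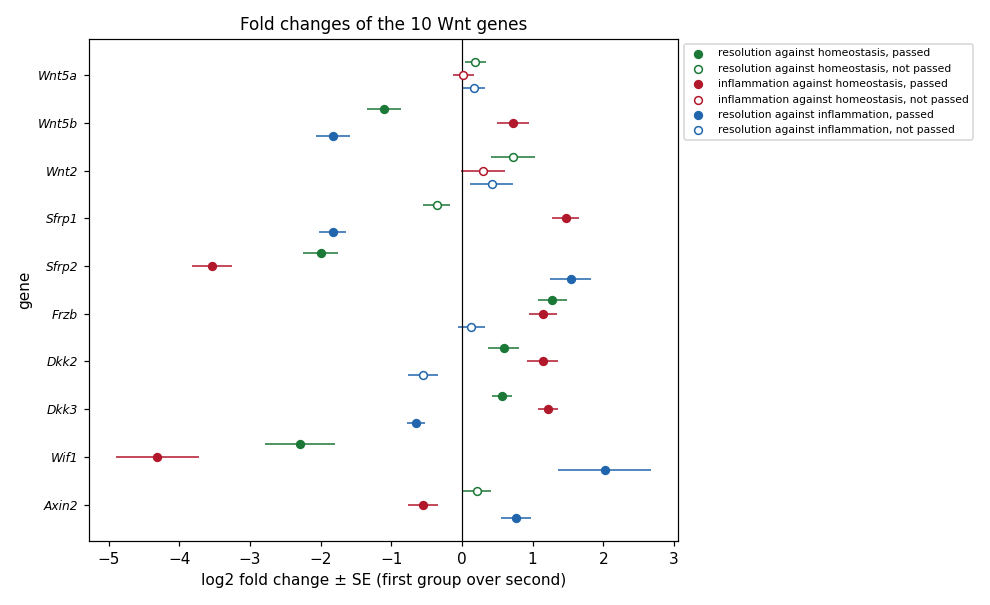
log2 fold change with its SE (x axis) of each gene in the 3 comparisons (colours), first-named group over second. Filled points passed at an adjusted p under 0.05 and open points did not; Wif1 and Sfrp2 reach -4.31 and -3.54 in inflammation against homeostasis.

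Among the ligands, Wnt5a (chr14:28504750-28527448, GRCm38, plus strand), the classical ligand of beta-catenin-independent signalling, had 30.4, 26.2, 30.3 and 32.5 CPM in resolution libraries 1 to 4, 25.1, 24.3, 25.4 and 31.2 CPM in inflammation, and 29.7, 27.1, 27.1 and 20.7 CPM in homeostasis. All 3 groups overlapped. Its log2 fold change was 0.19 (SE 0.15, edgeR adjusted p = 0.279) in resolution against homeostasis, 0.02 (SE 0.15, adjusted p = 0.924) in inflammation against homeostasis and 0.17 (SE 0.15, adjusted p = 0.43) in resolution against inflammation.

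Wnt5b (chr6:119432531-119544347, GRCm38, minus strand), a close relative of Wnt5a, had 1.91, 1.40, 2.41 and 1.80 CPM in resolution, 5.53, 9.62, 6.42 and 5.04 CPM in inflammation, and 3.30, 3.69, 4.44 and 4.76 CPM in homeostasis. The 3 groups did not overlap, with inflammation highest and resolution lowest. Its log2 fold change was -1.10 (SE 0.24, edgeR adjusted p = 0.000887) in resolution against homeostasis and -1.82 (SE 0.24, adjusted p = 2.7e-05) in resolution against inflammation. In inflammation against homeostasis it was 0.72 (SE 0.23, adjusted p = 0.0176), and the call was lost without inflammation 2 (0.50, adjusted p = 0.097) and with homeostasis 3 and 4 as the sole controls (0.56, adjusted p = 0.123). Fbxl14 lies within the Wnt5b locus on the other strand, and since the strand setting of the counting is not given, its reads cannot be told apart from those of Wnt5b where exons overlap. Fbxl14 averaged 10.4 ± 1.73 CPM in resolution, 10.2 ± 0.685 CPM in inflammation and 14.1 ± 3.56 CPM in homeostasis (SD, n = 4 each) and passed in no comparison.

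Wnt2 (chr6:17988940-18030585, GRCm38, minus strand), a ligand that can signal through beta-catenin, had 4.38, 1.63, 3.72 and 2.91 CPM in resolution, 2.33, 3.19, 2.35 and 1.55 CPM in inflammation, and 2.13, 1.23, 2.39 and 1.99 CPM in homeostasis. The groups overlapped, with resolution 2 lowest in its group. In resolution against homeostasis the log2 fold change was 0.72 (SE 0.31, edgeR adjusted p = 0.0532), which passed in 8 alternatives, among them without resolution 2 (0.94, adjusted p = 0.00943), inflammation 4 (adjusted p = 0.046) or homeostasis 3 (0.0462) and with GC and length offsets (1.02, adjusted p = 0.012). The values were 0.30 (SE 0.31, adjusted p = 0.468) in inflammation against homeostasis and 0.42 (SE 0.30, adjusted p = 0.342) in resolution against inflammation.

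Sfrp1 (chr8:23411502-23449632, GRCm38, plus strand), a secreted Frizzled-related protein, had 22.6, 19.9, 23.1 and 24.5 CPM in resolution, 65.8, 77.5, 79.9 and 97.9 CPM in inflammation, and 35.6, 38.0, 19.7 and 22.1 CPM in homeostasis. Every inflammation library was above all others, and the resolution libraries lay within the range of the homeostasis libraries, in which libraries 1 and 2 stood above 3 and 4. It rose by 1.47 on the log2 scale in inflammation against homeostasis (SE 0.19, edgeR adjusted p = 6.6e-06) and fell by 1.83 in resolution against inflammation (SE 0.19, adjusted p = 1.56e-06). In resolution against homeostasis it was -0.36 (SE 0.19, adjusted p = 0.115). This last value turned on the homeostasis libraries, since it was -0.72 (adjusted p = 0.00117) against homeostasis 1 and 2 alone and 0.12 (adjusted p = 0.578) against homeostasis 3 and 4 alone. It also passed without homeostasis 3 (-0.51, adjusted p = 0.0275) and without homeostasis 4 (-0.47, adjusted p = 0.047). The macrophage markers were likewise highest in inflammation, with 11 of 11 tested higher than in homeostasis and 11 of 11 lower in resolution than in inflammation. Summed skeletal muscle markers were also highest in inflammation (61.6 to 92.7 CPM), above homeostasis (43.9 to 54.9 CPM) and resolution (26.6 to 40.1 CPM). Most of that sum in inflammation was Acta1 (68.5 CPM). Of 7 tested muscle markers, 1 rose and 6 fell in inflammation against homeostasis, and 0 rose and 5 fell in resolution against inflammation. The part of either marker list in the Sfrp1 values was not tested. In these bulk libraries fewer cells of a type and less RNA per cell cannot be told apart.

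Sfrp2 (chr3:83766321-83774316, GRCm38, plus strand), also a secreted Frizzled-related protein, had 2.53, 3.18, 3.72 and 4.30 CPM in resolution, 1.23, 1.43, 0.832 and 1.19 CPM in inflammation, and 14.3, 13.4, 7.46 and 19.8 CPM in homeostasis. No groups overlapped, with inflammation lowest and homeostasis highest. It fell by 2.00 on the log2 scale in resolution against homeostasis (SE 0.25, edgeR adjusted p = 2.33e-06) and by 3.54 in inflammation against homeostasis (SE 0.28, adjusted p = 1.29e-08). In resolution against inflammation it rose by 1.54 (SE 0.29, adjusted p = 0.00102), so that resolution stood at 3.43 ± 0.758 CPM, against 1.17 ± 0.250 CPM in inflammation (SD, n = 4 each).

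Wif1 (chr10:121033960-121100650, GRCm38, plus strand), which binds Wnt ligands outside the cell, had 0.515, 0.561, 0.817 and 0.324 CPM in resolution, 0, 0.287, 0 and 0.221 CPM in inflammation, and 3.96, 3.26, 1.48 and 2.18 CPM in homeostasis. The groups did not overlap, and their order was that of Sfrp2. These levels rest on few reads, with 10, 12, 18 and 7 counts in resolution, 0, 7, 0 and 5 in inflammation, and 78, 106, 26 and 48 in homeostasis. The 0 counts of inflammation 1 and 3 allow up to 0.138 and 0.146 CPM. It fell by 2.29 on the log2 scale in resolution against homeostasis (SE 0.49, edgeR adjusted p = 0.000597) and by 4.31 in inflammation against homeostasis (SE 0.59, adjusted p = 1.22e-05; -5.04 without inflammation 2 and -3.71 against homeostasis 3 and 4 alone). In resolution against inflammation it rose by 2.02 (SE 0.66, adjusted p = 0.0418). That call was lost without resolution 1 (adjusted p = 0.0724), resolution 3 (0.144), resolution 4 (0.0528), inflammation 1 (0.12) or inflammation 3 (0.0956), and the value was 2.75 without inflammation 2. The gene entered the test only through groups where it was higher, with 3 resolution, 0 inflammation and 4 homeostasis libraries at or above the filter's 0.474 CPM, and the fit on the 8 resolution and inflammation libraries dropped it.

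Summed markers of 3 other cell types were also highest in homeostasis, as Sfrp2 and Wif1 were, and so were the summed fibroblast markers. The fibroblast markers did not all move together. Of 11 tested, 7 fell and 2 rose in resolution against homeostasis, and 4 fell and 2 rose in inflammation against homeostasis. Dcn was among those that rose, with means of 897 CPM in resolution, 972 CPM in inflammation and 161 CPM in homeostasis. In homeostasis the chondrocyte sum was mostly Col2a1 (828 CPM) and the lining sum mostly Prg4 (3212 CPM). The chondrocyte marker Col11a2 (2.99 against 1.7 CPM) and the lining marker Vcam1 (302 against 210 CPM) were higher in resolution than in homeostasis. Of 7 tested chondrocyte markers, 5 fell and 1 rose in resolution against homeostasis, 5 fell and 0 rose in inflammation against homeostasis, and 0 fell and 1 rose in resolution against inflammation. The 6 lining synoviocyte markers, all with counts in each group, summed to 776 to 1647.7 CPM in resolution, 978 to 1284.3 CPM in inflammation and 2602 to 5217.5 CPM in homeostasis. Of these, 3 fell and 1 rose in resolution against homeostasis, and 4 fell and 0 rose in inflammation against homeostasis. The 10 Schwann cell markers, all with counts in each group, had the full order of Sfrp2 and Wif1, with sums of 42.2 to 51.2 CPM in resolution, 28.8 to 34.3 CPM in inflammation and 68.2 to 82.7 CPM in homeostasis. Of 8 tested, 5 fell and 1 rose in resolution against homeostasis, 6 fell and 0 rose in inflammation against homeostasis, and 1 fell and 4 rose in resolution against inflammation. The part of these markers in the Sfrp2 and Wif1 values was not tested.

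Frzb (chr2:80411970-80447625, GRCm38, minus strand), a Frizzled-related protein first known from cartilage, had 8.61, 8.73, 7.04 and 7.86 CPM in resolution, 6.49, 5.90, 7.15 and 9.90 CPM in inflammation, and 2.54, 4.06, 3.02 and 3.53 CPM in homeostasis. Resolution and inflammation overlapped each other and both lay above homeostasis. The summed chondrocyte markers ran the other way. The 6 osteoblast markers summed to 29.5 to 42.6 CPM in resolution and 29.5 to 35.6 CPM in inflammation (Ibsp at 0 in both). In homeostasis they summed to 6.55 to 12.6 CPM. Most of these sums was Alpl, with means of 31.7, 31.4 and 8.21 CPM in that order. Of 3 tested, Alpl and the scarce Bglap (0.455, 0.464 and 0.135 CPM) were higher than homeostasis in both groups. The third, Sp7, was lower in resolution than in homeostasis (-1.43, edgeR adjusted p = 0.0149). The part of these markers in the Frzb values was not tested. Frzb rose by 1.28 on the log2 scale in resolution against homeostasis (SE 0.20, edgeR adjusted p = 3.04e-05) and by 1.15 in inflammation against homeostasis (SE 0.20, adjusted p = 0.000199). The difference between resolution and inflammation was 0.13 (SE 0.19, adjusted p = 0.664).

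Dkk2 (chr3:132085292-132180304, GRCm38, plus strand), a Dickkopf protein that binds Wnt co-receptors, had 5.41, 4.95, 5.99 and 8.60 CPM in resolution, 10.2, 8.11, 8.86 and 9.37 CPM in inflammation, and 5.23, 5.14, 2.91 and 3.22 CPM in homeostasis. Inflammation lay above homeostasis without overlap, and resolution overlapped both. It rose by 1.14 on the log2 scale in inflammation against homeostasis (SE 0.22, edgeR adjusted p = 0.000461). In resolution against homeostasis it rose by 0.59 (SE 0.22, adjusted p = 0.0309), a call lost without resolution 4 (0.39, adjusted p = 0.166), homeostasis 3 (0.45, adjusted p = 0.107) or homeostasis 4 (0.48, adjusted p = 0.0937). Against homeostasis 1 and 2 alone the value was 0.26 (adjusted p = 0.384) and against homeostasis 3 and 4 alone it was 1.03 (adjusted p = 0.00187), while GC and length offsets gave 0.36 (adjusted p = 0.11). In resolution against inflammation it was -0.55 (SE 0.21, adjusted p = 0.0855), and with the replicate block on these 8 libraries it passed at -0.58 (adjusted p = 0.0102), as it did without resolution 4 (adjusted p = 0.0411).

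Dkk3 (chr7:112116017-112159057, GRCm38, minus strand), a divergent Dickkopf family member, had 38.1, 41.6, 34.5 and 36.6 CPM in resolution, 49.3, 57.7, 59.1 and 70.5 CPM in inflammation, and 24.1, 26.7, 23.8 and 27.0 CPM in homeostasis. No groups overlapped, and resolution lay between the other two. It rose by 0.57 on the log2 scale in resolution against homeostasis (SE 0.14, edgeR adjusted p = 0.00163; 0.87 with GC and length offsets) and by 1.22 in inflammation against homeostasis (SE 0.14, adjusted p = 1.15e-06). In resolution against inflammation it fell by 0.65 (SE 0.13, adjusted p = 0.00262).

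Levels were compared between genes per kilobase of exon (RPKM, from the union of annotated exons). Dkk3 and Sfrp1 held the first and second places in every group. In resolution they averaged 11.2 ± 0.886 and 5.15 ± 0.435 RPKM, with no overlap between them. In inflammation Sfrp1 was first with 18.4 ± 3.03 RPKM and Dkk3 second with 17.6 ± 2.60 RPKM, and their libraries overlapped. In homeostasis Dkk3 averaged 7.56 ± 0.508, Sfrp1 6.60 ± 2.12, Sfrp2 6.38 ± 2.35 and Wnt5a 3.34 ± 0.492 RPKM, and each overlapped its neighbour in that order. Wnt5a came next in resolution, at 3.82 ± 0.338 RPKM, and in inflammation, at 3.39 ± 0.406 RPKM (SD, n = 4 throughout). The last place was held by Wif1 in resolution (0.228 ± 0.0837 RPKM) and inflammation (0.0523 ± 0.0614 RPKM), in both without overlap with the gene above it. In homeostasis Axin2 was last with 0.768 ± 0.105 RPKM, overlapping Wnt2 at 0.859 ± 0.221 RPKM.

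For the 6 genes grouped here as antagonists, the summed level was 22.4 ± 0.852 RPKM in resolution. It was 41.3 ± 6.08 RPKM in inflammation and 23.8 ± 4.33 RPKM in homeostasis (SD, n = 4 each). The sums of resolution and homeostasis overlapped, and Dkk3 had the largest mean share in both. Dkk3 made up 50.2 ± 3.59% of the sum in resolution, 42.6 ± 0.663% in inflammation and 32.5 ± 5.71% in homeostasis. Sfrp2 made up 7.11 ± 1.47% in resolution, 1.34 ± 0.367% in inflammation and 26.4 ± 7.24% in homeostasis. Frzb and Dkk2 had larger mean shares in resolution than in homeostasis: 11.1 ± 1.00% against 4.36 ± 0.975% for Frzb, and 7.50 ± 1.75% against 4.65 ± 0.895% for Dkk2. Sfrp1 made up 23.0 ± 2.01% in resolution, 44.4 ± 0.978% in inflammation and 27.5 ± 5.71% in homeostasis. The summed ligands were 5.93 ± 0.900, 6.94 ± 0.821 and 5.73 ± 0.431 RPKM in resolution, inflammation and homeostasis, of which Wnt5b made up 11.9 ± 1.47%, 35.6 ± 6.63% and 26.8 ± 5.33%. These sums are descriptions of RNA levels, not of antagonist activity, and were not tested. Whether Dkk3, the divergent family member, acts as a Wnt antagonist in these cells was not tested either.

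**Figure D3:**
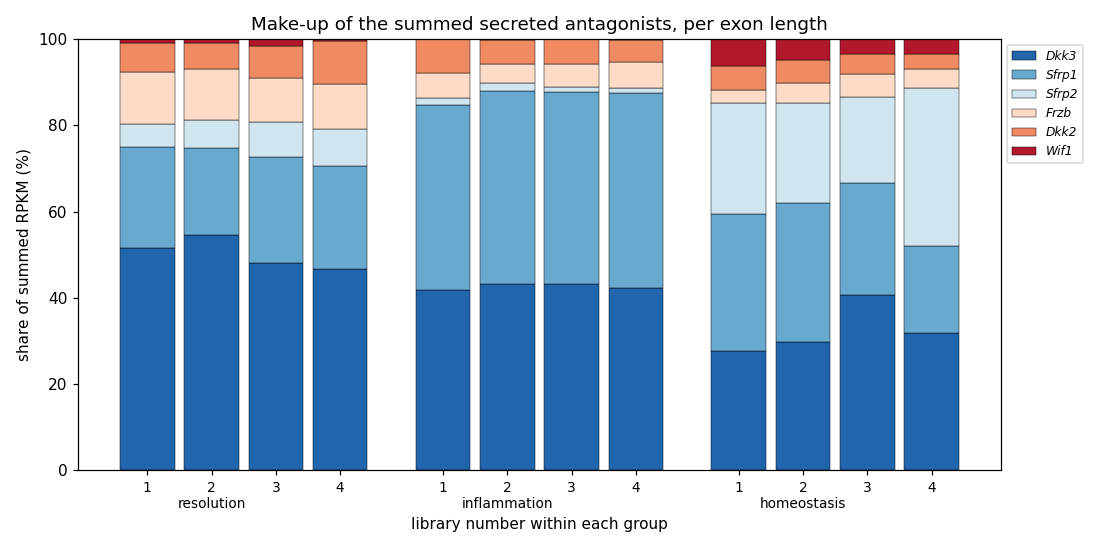
Share (y axis, percent) of each antagonist in the summed per-length level of the 6 antagonists, for each library (bars, numbered within their group). Sfrp2 takes at most 1.68% in the inflammation libraries, where Sfrp1 takes 42.9 to 45.1%, and up to 36.6% in the homeostasis libraries.

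Axin2 (chr11:108920349-108950783, GRCm38, plus strand), the feedback inhibitor and target of beta-catenin, had 4.02, 5.32, 5.67 and 4.58 CPM in resolution, 2.33, 2.74, 2.74 and 3.76 CPM in inflammation, and 4.98, 4.31, 3.59 and 4.03 CPM in homeostasis. Resolution lay above inflammation without overlap, while homeostasis overlapped both. It rose by 0.76 on the log2 scale in resolution against inflammation (SE 0.21, edgeR adjusted p = 0.0169), a call lost without resolution 3 (adjusted p = 0.071), inflammation 1 (0.072) or inflammation 2 (0.0619). In inflammation against homeostasis it fell by 0.55 (SE 0.21, adjusted p = 0.0433), and this call was lost in 16 of 22 alternatives, with adjusted p of 0.0558 to 0.264 and values of -0.56 to -0.37. Among them were the fits without resolution 1, 3 or 4, without inflammation 1, 2 or 3, and without homeostasis 1, 2 or 4. In resolution against homeostasis it was 0.21 (SE 0.20, adjusted p = 0.389; 0.51 and adjusted p = 0.0338 with GC and length offsets). Antisense genes that the annotation places over Axin2, Sfrp2 and Wnt5a were not analysed here, and without the strand setting their reads cannot be told apart from these genes' own.

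The upstream windows of the 10 genes were searched where a sequence was at hand, for 2 core letter strings of the beta-catenin partners Tcf and Lef, CTTTGA and CTTTGT, on both strands, and for the NF-kB consensus. The promoter sequences used here, from RefSeq (GRCm38.p6), covered 7 of the 10 genes, with 9 windows of 250 bases before the start, 3 of them for Wnt5b; Wnt5a, Sfrp1 and Dkk3 were not analysed here. CTTTGA occurred in 13.8% and CTTTGT in 16.5% of all 32851 windows, either in 27.6%, and the NF-kB consensus in 7.30%. Of the 9 windows, 3 held a Tcf/Lef string (Frzb, Dkk2 and 1 of Wnt5b) and 0 held the NF-kB consensus. The matching Wnt5b window lies wholly inside the annotated gene, and the Frzb match also lies inside its gene. Sfrp2 and Wif1 are shown because they had the same order of groups, Dkk2 and Frzb because they held a match; capitals mark the match, and lower case all other bases. The Wif1 window stops where the annotated gene begins, and Frzb is given as 30 bases around the match because its window lies mostly inside the annotated gene. The Sfrp2 window is chr3:83766071-83766320 (plus strand), Wif1 chr10:121033754-121033959 (plus strand), Dkk2 chr3:132085042-132085291 (plus strand) and Frzb chr2:80447474-80447503 (minus strand, where the match reads as the reverse complement of CTTTGA).
Sfrp2: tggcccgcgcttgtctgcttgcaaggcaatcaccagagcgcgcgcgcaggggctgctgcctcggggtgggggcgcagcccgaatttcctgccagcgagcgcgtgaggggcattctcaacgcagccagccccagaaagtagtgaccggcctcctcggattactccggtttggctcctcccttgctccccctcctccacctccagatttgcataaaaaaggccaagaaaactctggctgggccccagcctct
Wif1: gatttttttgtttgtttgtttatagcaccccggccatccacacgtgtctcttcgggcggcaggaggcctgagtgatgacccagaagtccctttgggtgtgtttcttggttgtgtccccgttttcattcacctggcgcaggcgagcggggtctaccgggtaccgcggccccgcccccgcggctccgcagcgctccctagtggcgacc
Dkk2: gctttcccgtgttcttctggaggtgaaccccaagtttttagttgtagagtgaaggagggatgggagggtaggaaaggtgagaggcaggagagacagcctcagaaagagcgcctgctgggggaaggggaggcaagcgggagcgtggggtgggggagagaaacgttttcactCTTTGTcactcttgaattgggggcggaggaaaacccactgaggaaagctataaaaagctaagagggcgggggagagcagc
Frzb: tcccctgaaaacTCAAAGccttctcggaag
A match is a description of the letters, and the absence of one says only that these letters are not in the window.

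The tested genes whose profile over the 12 libraries lay closest to a member were found by the root mean square difference between log2 CPM profiles, each centred on its own mean, for the 3 members whose group means ranged most. Wif1 (range 3.91) was closest to Bmp7 (0.57), a secreted BMP-family ligand, then to the receptor gene Adcyap1r1 (0.64) and to Sfrp2 (0.67). With 0, 7, 0 and 5 counts of Wif1 in inflammation, its range and its nearest profiles rest partly on very low counts. Bmp7 averaged 0.432 ± 0.216 CPM in resolution, 0.149 ± 0.135 CPM in inflammation and 2.60 ± 0.725 CPM in homeostasis (SD, n = 4 each). Sfrp2 (range 3.39) was closest to Apoe (0.47), a lipid carrier, then to F13a1 (0.49) and Syt13 (0.49), and Apoe averaged 13.2 ± 2.90 CPM in resolution, 5.53 ± 0.975 CPM in inflammation and 34.6 ± 6.72 CPM in homeostasis. Sfrp1 (range 1.82) was closest to Csf1r (0.33), the macrophage growth factor receptor, then to Plek (0.34) and Crabp2 (0.38). Csf1r averaged 10.2 ± 0.762 CPM in resolution, 40.9 ± 2.63 CPM in inflammation and 14.1 ± 1.57 CPM in homeostasis (SD, n = 4 each).

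Other genes of the pathway were taken from 7 lists of 118 symbols in all, of which 92 were tested. Of these, 19 rose and 25 fell in resolution against homeostasis (47.8% passed, against 53.3% of all tested genes). In inflammation against homeostasis 11 rose and 17 fell (30.4%, against 37.2%), and in resolution against inflammation 4 rose and 9 fell (14.1%, against 16.2%). The shares that passed were thus near or below those of all tested genes. Of the other ligands, 6 of 16 were tested, with 1 rising and 2 falling in resolution against homeostasis (50.0% passed, against 53.3% of all tested genes). In inflammation against homeostasis 0 rose and 2 fell (33.3%, against 37.2%), and in resolution against inflammation 0 passed (against 16.2%). Wnt10b fell in resolution against homeostasis by 2.34 on the log2 scale (SE 0.58, edgeR adjusted p = 0.00223), with 5, 7, 13 and 0 counts in resolution and 20, 66, 34 and 23 counts in homeostasis. It was tested through the group where it was higher, with 1 resolution, 2 inflammation and 4 homeostasis libraries at or above the filter's 0.474 CPM. Wnt16, a ligand linked to bone and joint in mice, averaged 1.46 ± 0.622 CPM in resolution, 1.22 ± 0.337 CPM in inflammation and 2.94 ± 0.533 CPM in homeostasis. It fell in both comparisons against homeostasis (adjusted p = 0.00872 and 0.00298). Wnt11 was higher in level, averaging 25.9 ± 4.69 CPM in resolution, 18.4 ± 1.62 CPM in inflammation and 16.5 ± 6.76 CPM in homeostasis. Against homeostasis Wnt11 rose in resolution by 0.66 (SE 0.23, edgeR adjusted p = 0.02), with overlapping libraries. Against homeostasis 3 and 4 alone it gave 0.24 (adjusted p = 0.272).

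The R-spondins amplify Wnt signals at the receptor. Rspo3 had 30.9, 28.9, 39.7 and 34.5 CPM in resolution, 14.8, 14.3, 14.7 and 16.4 CPM in inflammation, and 24.8, 27.1, 27.5 and 26.1 CPM in homeostasis. Inflammation lay below both other groups without overlap. It fell by 0.81 on the log2 scale in inflammation against homeostasis (SE 0.14, edgeR adjusted p = 0.000141) and rose by 1.15 in resolution against inflammation (SE 0.14, adjusted p = 7.77e-06). In resolution against homeostasis it rose by 0.35 (SE 0.14, adjusted p = 0.0379), but without resolution 3 that value was 0.27 (adjusted p = 0.132), it was also lost without resolution 4, inflammation 3 or any homeostasis library except 2, and it turned to -0.05 (adjusted p = 0.728) with GC and length offsets. Rspo2 rose by 0.72 in resolution against homeostasis (SE 0.21, adjusted p = 0.0067), with 18.5 ± 3.07 CPM in resolution and 11.2 ± 3.69 CPM in homeostasis (SD, n = 4 each), and gave 0.38 (adjusted p = 0.142) against homeostasis 1 and 2 alone.

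Of 9 further antagonists tested, 2 rose and 3 fell in resolution against homeostasis (55.6% passed, against 53.3% of all tested genes), and 3 rose and 1 fell in inflammation against homeostasis (44.4%, against 37.2%). In resolution against inflammation 0 rose and 2 fell (22.2%, against 16.2%). Notum, a secreted enzyme that removes the lipid from Wnt proteins, had 9.38, 7.57, 11.6 and 12.3 CPM in resolution, 11.2, 10.2, 12.1 and 7.47 CPM in inflammation, and 3.45, 3.51, 3.30 and 2.85 CPM in homeostasis. It was higher than homeostasis in all 8 libraries of the other 2 groups, by 1.64 on the log2 scale in each (SE 0.20, edgeR adjusted p = 1.52e-06 in resolution and 3.27e-06 in inflammation). Igfbp4, an IGF-binding protein that can also inhibit Wnt receptors, averaged 831 ± 85.6 CPM in resolution, 1318.4 ± 129 CPM in inflammation and 634 ± 85.9 CPM in homeostasis, and rose against homeostasis by 0.39 in resolution (adjusted p = 0.0161) and by 1.06 in inflammation (adjusted p = 4.11e-06). Trabd2b, a membrane protease that inactivates Wnt proteins, fell by 1.09 in resolution (adjusted p = 5.5e-05) and by 1.20 in inflammation (adjusted p = 4.15e-05). Apcdd1, a membrane inhibitor, averaged 7.90 ± 1.5 CPM in resolution, 13.8 ± 0.901 CPM in inflammation and 16.0 ± 1.5 CPM in homeostasis (SD, n = 4 each), and passed as lower in resolution than in either other group (adjusted p = 2.85e-05 against homeostasis and 0.00181 against inflammation).

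Of the receptors, 18 were tested, with 4 rising and 7 falling in resolution against homeostasis (61.1% passed, against 53.3% of all tested genes). There were 2 rising and 4 falling in inflammation against homeostasis (33.3%, against 37.2%), and 0 rising and 3 falling in resolution against inflammation (16.7%, against 16.2%). Ror2, the receptor tyrosine kinase that binds Wnt5a, averaged 12.0 ± 2.57 CPM in resolution, 20.2 ± 0.959 CPM in inflammation and 22.7 ± 3.06 CPM in homeostasis (SD, n = 4 each). It fell by 0.91 on the log2 scale in resolution against homeostasis (SE 0.16, edgeR adjusted p = 0.000101) and by 0.74 in resolution against inflammation (SE 0.16, adjusted p = 0.00367). Fzd6 fell by 0.98 in resolution (adjusted p = 0.00058) and by 0.69 in inflammation (adjusted p = 0.0118; adjusted p = 0.118 against homeostasis 3 and 4 alone), both against homeostasis. Fzd7 rose by 0.51 in resolution (adjusted p = 0.0157) and by 0.64 in inflammation (adjusted p = 0.00591), both against homeostasis.

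Of the intracellular components, 24 were tested, and 3 rose and 7 fell in resolution against homeostasis (41.7% passed, against 53.3% of all tested genes). In inflammation against homeostasis 2 rose and 4 fell (25.0%, against 37.2%), and in resolution against inflammation 1 rose and 1 fell (8.33%, against 16.2%). Apc, the scaffold of the complex that degrades beta-catenin, had 104, 53.2, 130 and 135 CPM in resolution, 51.0, 59.7, 78.7 and 57.9 CPM in inflammation, and 36.8, 25.8, 43.2 and 28.8 CPM in homeostasis. It lay above homeostasis in every library of the other 2 groups, by 1.65 on the log2 scale in resolution (SE 0.23, edgeR adjusted p = 8.49e-06) and by 0.88 in inflammation (SE 0.23, adjusted p = 0.00543; 0.80 and adjusted p = 0.0674 against homeostasis 3 and 4 alone), with resolution 2 lowest in its group. Axin1, its partner in the complex, averaged 58.3 ± 5.19 CPM in resolution, 66.3 ± 7.17 CPM in inflammation and 88.5 ± 7.12 CPM in homeostasis, and fell by 0.60 (adjusted p = 0.000515) and 0.42 (adjusted p = 0.0134) in resolution and inflammation against homeostasis.

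Of 19 known beta-catenin target genes tested, 5 rose and 4 fell in resolution against homeostasis (47.4% passed, against 53.3% of all tested genes). In inflammation against homeostasis 2 rose and 4 fell (31.6%, against 37.2%), and in resolution against inflammation 3 rose and 3 fell (31.6%, against 16.2%). Nkd2, an inhibitor of Dishevelled, averaged 120 ± 7.63 CPM in resolution, 86.5 ± 9.95 CPM in inflammation and 45.0 ± 5.44 CPM in homeostasis (SD, n = 4 each). It rose by 1.42 on the log2 scale in resolution (SE 0.13, edgeR adjusted p = 3.96e-08) and by 0.94 in inflammation (SE 0.13, adjusted p = 1.34e-05) against homeostasis, and by 0.48 in resolution against inflammation (SE 0.13, adjusted p = 0.0159). Myc, a growth regulator with many other inputs, took the opposite order, with 27.8 ± 4.44 CPM in resolution, 47.1 ± 2.13 CPM in inflammation and 64.5 ± 11.4 CPM in homeostasis, and fell by 1.22 in resolution (adjusted p = 1.66e-06) and by 0.46 in inflammation (adjusted p = 0.0196) against homeostasis, and by 0.76 in resolution against inflammation (adjusted p = 0.00154). Notum, Apcdd1 and Rspo3 are on both this list and another. Of the planar cell polarity and non-canonical genes, 20 were tested. Of these, 6 passed in resolution against homeostasis (30%, against 53.3% of all tested genes), 7 in inflammation against homeostasis (35%, against 37.2%) and 1 in resolution against inflammation (5%, against 16.2%). Scrib, a polarity scaffold, averaged 43.9 ± 11.1 CPM in resolution, 62.0 ± 4.51 CPM in inflammation and 99.5 ± 24.2 CPM in homeostasis, and fell by 1.18 in resolution (adjusted p = 2.34e-05) and by 0.68 in inflammation (adjusted p = 0.0058; adjusted p = 0.127 against homeostasis 1 and 2 alone), both against homeostasis.

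**Figure D4:**
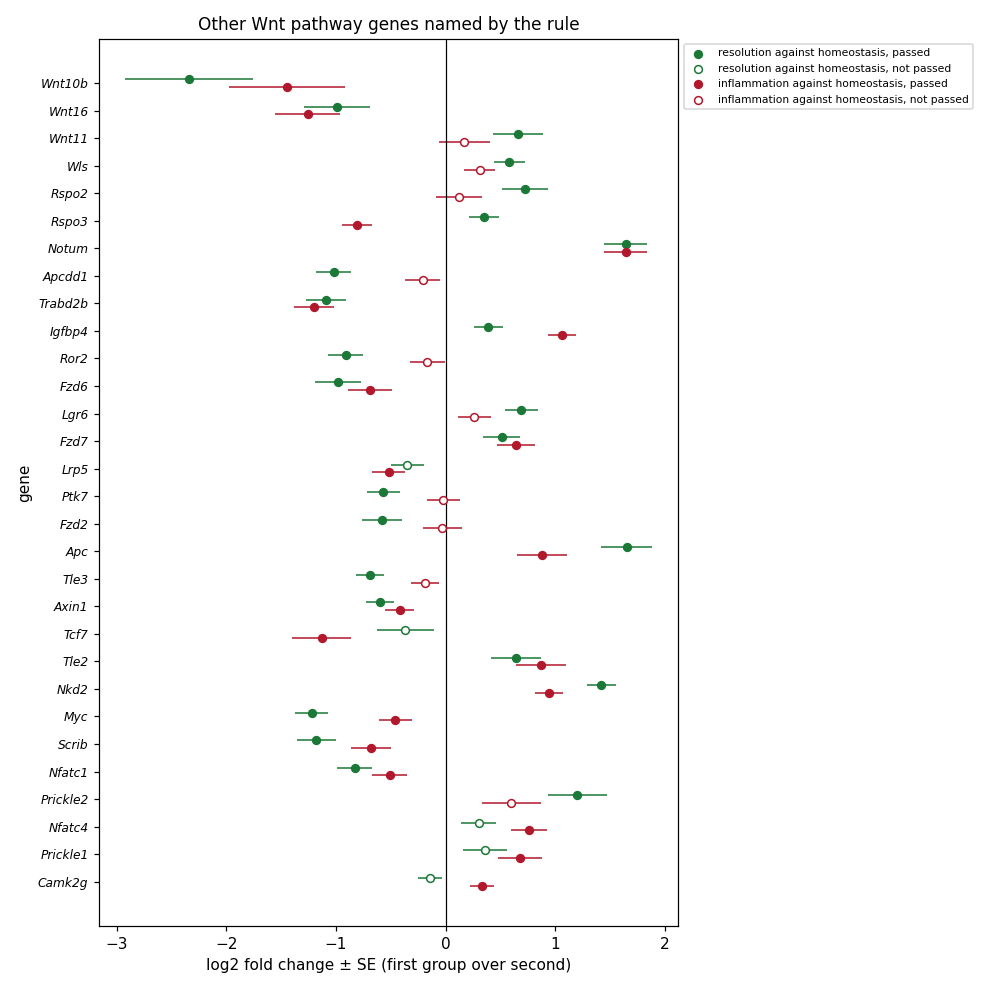
log2 fold change with its SE (x axis) of the other named Wnt pathway genes in resolution (green) and inflammation (red), each over homeostasis; filled points passed at an adjusted p under 0.05. Notum lies at 1.64 in both groups, and Nkd2 and Apc are further from 0 in resolution.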

How the data were processed

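Poly(A)-enriched RNA of 12 samples was sequenced on a NovaSeq with paired reads of 150 bases (6 G of raw data each), per the labels' protocols. The authors deposited a table of expected counts (estimated read counts) per gene symbol, not normalized; reads were assigned on GRCm38.p3, per the submitters' processing notes, while the sources used here name no aligner, counter, strand setting or annotation. Among the deposited estimated counts 1.43% were not whole and were rounded. Of 36930 entries, 13 without a value were left out and 42 repeats over 34 symbols were summed.

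Tests used edgeR 4.0.16 (R 4.3.3; TMM, filterByExpr, robust quasi-likelihood F test, all 12 libraries, group only; 15049 genes, biological coefficient of variation 18.6%), with the SE taken from the fold change and F. On simulated counts for resolution against homeostasis over 15049 genes, 91.8% of 2-fold and 98% of 4-fold changes were recovered, with 6.5% false calls. The simulation gave every gene the same biological variation and changed only 100 genes per fold, so these rates need not hold for the real counts. DESeq2 1.42.0, other scalings and filters, left-out libraries, subsets of controls and, added after seeing the data, GC and length offsets were alternatives. RPKM used GENCODE vM21 union exons. Same-numbered resolution and inflammation libraries had weakly correlated deviations from their group means (0.14, 0.13, 0.21 and 0.14). Differently numbered libraries of these groups ranged from -0.25 to 0.2, and the labels state no pairing, so a pairing is not established. The numbers were taken as pairs from the data for the block on those 8 libraries, which was also added afterwards. Within groups the reduced chi-square between libraries was 10.2 to 113.8, so each was counted once.

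Named genes were all 10 members; for each comparison and pathway list, up to 3 passing genes of lowest adjusted p, of which the text describes some; 3 nearest profiles for each of 3 members; and Tnf. The members and lists were chosen with earlier results of these data known. Of 207 list symbols 203 matched as written and 4 by a synonym.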

Additional observations from a re-analysis of the deposited data

Results flagged for a closer look

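In 5 of 120 groups of 4 libraries (40 genes), 1 library stood far from the other 3; chance gives about 1 in 20. Wnt5a had 31.2 CPM in inflammation 4, against 24.3, 25.1 and 25.4 CPM in the other inflammation libraries. Nkd2 had 101 CPM in inflammation 4, against 80.2, 82.1 and 82.3 CPM, and 37.0 CPM in homeostasis 1, against 46.8, 47.9 and 48.5 CPM in the other homeostasis libraries. Lrp5 had 145 CPM in resolution 2, against 97.2, 102 and 103 CPM. Tle2 had 27.9 CPM in inflammation 3, against 21.0, 21.1 and 22.1 CPM.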

How the results depend on the processing

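Of 648 fold changes of the 10 genes under 23 alternatives, 592 kept their direction and side of the threshold, 33 lost and 16 gained a call, and 7 changed sign, none of them with a call. The calls of Dkk3, Frzb and Sfrp2 held in every alternative run, as did those of Sfrp1 outside resolution against homeostasis. The sign changed for Sfrp1 in resolution against homeostasis (0.12 against homeostasis 3 and 4 alone) and for Wnt5a: with GC and length offsets (-0.07 in resolution against homeostasis, -0.03 in inflammation against homeostasis, -0.04 in resolution against inflammation), against homeostasis 1 and 2 alone (-0.09 in inflammation against homeostasis), and, in inflammation against homeostasis, without single libraries (-0.06 to 0.11). Rspo3 in resolution against homeostasis became -0.05 with GC and length offsets; of 1002 pathway values 54 lost their call. The cause was not tested.

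Genes that passed in resolution against inflammation ranged from 1242 to 4191 without single libraries (4191 without resolution 2), and the count of the 10 from 4 to 6 (5 to 7 in resolution and 6 to 8 in inflammation, both against homeostasis), and numbered 4808 with the replicate block on 8 libraries. With the replicate block on all 12 libraries, 7589, 5053 and 1898 genes passed in the 3 comparisons, and 6, 7 and 5 of the 10; same-numbered libraries did not deviate together against homeostasis (-0.23 to 0 for resolution, -0.21 to 0.08 for inflammation). Total-count scaling shifted the median of all genes by 0.13 in resolution against homeostasis and raised the share of calls that were higher to 62.0% (51.6% with TMM) there and to 66.5% (52.7%) in resolution against inflammation. Counts of Wif1 limit its precision.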
